A study of Mus musculus with 6 samples.

Results

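Induced macrophages (iMac) were compared with a population that the submitters call "myeloid-like cell complex" (MCC) by sequencing of messenger RNA, with 2 libraries in each group. All libraries came from wild type mouse cells. By the series title, fibroblasts were turned into macrophages with c-Myc, and the other group of the series is mouse embryonic fibroblasts (MEF), also with 2 libraries. The sources used here do not say how MCC and iMac were made, how they follow from each other or how Myc was delivered. The comparison uses 4 of the 6 libraries, and MEF served only to sort genes. A gene was set apart as fibroblast-high where its mean MEF level was over 10 times its mean iMac level, in counts over the library total times 1e6 (CPM, unscaled). That sorted 8430 of the 30445 genes in the table as fibroblast-high, 5658 of them with under 1 CPM in MEF, and left 22015 others. Of the 15859 genes with enough counts to be tested, 1068 were fibroblast-high and 14791 were others. Just inside the limit lay Slc22a15 with a ratio of 10.05 and Ext1 with 10.1, and just outside it Pycr1 with 9.90 and Clcn2 with 9.86, among genes at 20 CPM or more in MEF.

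Macrophages are phagocytes that live on the growth factor CSF1 through its receptor Csf1r, and the transcription factor PU.1, encoded by Spi1, holds their identity. They take up dying cells, microbes and lipoproteins, digest them in lysosomes, and export the cholesterol they gain through transporters such as Abca1 and Abcg1. In most cells the factor SREBP2 switches on genes of cholesterol synthesis when membrane sterol is low, and the LXR factors switch on export genes when sterol derivatives are high. Myc drives genes of ribosome production, metabolism and cell division.

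Levels in MCC and iMac are given as CPM scaled by TMM over these 4 libraries, in the order library 1 and library 2, and levels in MEF and sums over lists as unscaled CPM. Library totals ran from 34389817 to 36847857 counts. The MCC libraries differed from each other more than the iMac libraries did: the chi-square per degree of freedom was 47.2 for the MCC pair and 9.36 for the iMac pair. MCC library 1 held 2.0% of its counts in fibroblast-high genes and MCC library 2 held 0.499%, against 0.218% and 0.224% in iMac. The labels do not say that libraries of a group came from separate cultures, so p-values measure the spread between these libraries only. In bulk RNA, fewer cells of a type and less RNA per cell cannot be told apart.

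In all, 1364 of 15859 tested genes (8.6%) passed an adjusted p of 0.05 in edgeR's quasi-likelihood test, 691 higher and 673 lower in iMac. In all 1364 the MCC and iMac libraries did not overlap, so a lack of overlap in a called gene adds nothing to its call. Outside the fibroblast-high set, 690 genes were higher (4.66% of those tested), 161 of them by at least 2-fold, and 564 were lower (3.81%), 134 of them by at least 2-fold. These shares, 4.66% and 3.81%, are the background of the list counts from the edgeR fit of all 4 libraries. They do not apply to counts at an unadjusted p, in DESeq2 or with an MCC library left out, since those called more genes. List counts from fits without an MCC library stand without a matching share. A rise in such a count therefore shows no change particular to a list. At an unadjusted p under 0.05, 4605 of all 15859 tested genes passed in the edgeR fit. Outside the fibroblast-high set, DESeq2 called 1338 higher and 1111 lower. The lists share some members, such as Itgam, so the same call can count in several lists. The balance of the calls rests on scaling: with library totals and no scaling, 467 genes were higher and 1152 lower (466 and 988 outside the fibroblast-high set), since scaling shifted the median of all genes by 0.125 on the log2 scale. Of the 564 that fell outside the fibroblast-high set, 316 were higher in MCC library 1 than in MCC library 2, and of the 690 that rose, 334. The matching share over all tested genes is not given here, so these counts alone do not show how far the calls follow MCC library 1. Among called genes outside that set with MEF at or below iMac, 605 were higher and 209 lower. That choice uses the iMac level, so it favours rises and partly fixes this balance. The count rests on the iMac pair as well. Without iMac library 1 or iMac library 2, 0 genes passed in edgeR (1858 and 2221 had an unadjusted p under 0.05), while without MCC library 1 the count was 3565 and without MCC library 2 it was 5222. DESeq2, run on all 4 libraries, called 2950. No list below has a called member when either iMac library is left out. A fit that also held the MEF libraries called 4, namely Id3, Npnt, Rnf144b and Tecpr1, and all 4 are among the 1364. Gene lists are therefore described by their medians too, with the range over the fits that leave out each library. Without scaling, the medians of the lists for phagocytic receptors, pattern recognition, cytokines, antigen presentation, complement, cell cycle inhibitors and oxidative stress turned from above to below 0. The median log2 fold change (iMac over MCC) of all tested genes was 0.00, and that of the genes outside the fibroblast-high set was 0.03.

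**Figure D1:**
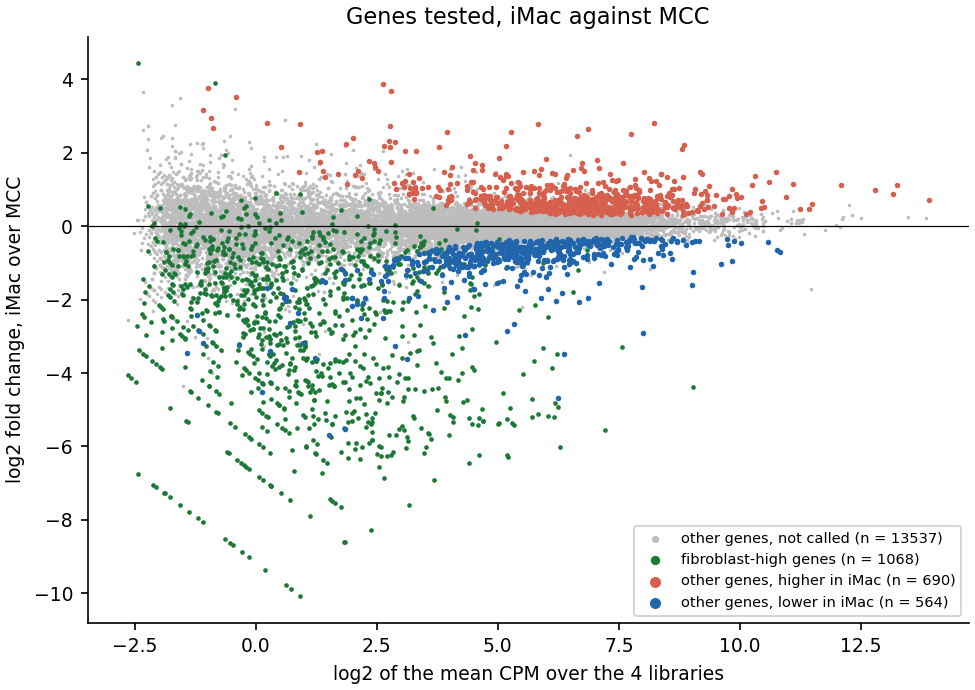
Log2 fold change of iMac over MCC (vertical) against mean level in scaled CPM on a log axis (horizontal) for the 15859 genes tested, with called genes and fibroblast-high genes marked. Genes outside the fibroblast-high set lie about 0, with 690 called above and 564 called below, while fibroblast-high genes lie mostly below 0.

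The fibroblast-high genes were lower in iMac as a set, which the rule partly fixes because it uses the iMac level: 109 of the 1068 tested (10.2%) were called lower and 1, Adamts15, higher. Their median log2 fold change was -2.27, with MCC library 1 left out it was -1.03, and with MCC library 2 left out -3.95. Among the 1404 such genes at 10 CPM or more in MEF, the median level in MCC library 1 was 7.71% of the MEF level (quartiles 3.79% and 12.8%). It was 0.780% in MCC library 2 (quartiles 0.275% and 3.13%), and 0.271% and 0.287% in iMac. MCC library 1 exceeded MCC library 2 for 1328 of these 1404 genes. Collagens and smooth muscle actin show the gap. Col1a1, a fibrillar collagen chain, stood at 549 and 35.9 CPM in MCC and 6.82 and 5.57 CPM in iMac, and at 7748 and 2411 unscaled CPM in MEF. Its difference was not called (-5.56 ± 1.40 (SE), adjusted p = 0.0795). Acta2, the smooth muscle actin of contractile fibroblasts, stood at 294 and 13.8 CPM in MCC and 1.99 and 2.76 CPM in iMac and was not called either (adjusted p = 0.0883). Both genes were far higher in MCC library 1 than in the other 3. The 25 fibroblast marker genes listed were all fibroblast-high. Of these, 21 were tested and 3 were called lower (Fn1, Col6a3 and Thy1), and their summed unscaled level was 3683 and 698 CPM in MCC against 71.4 and 77.8 CPM in iMac.

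**Figure D2:**
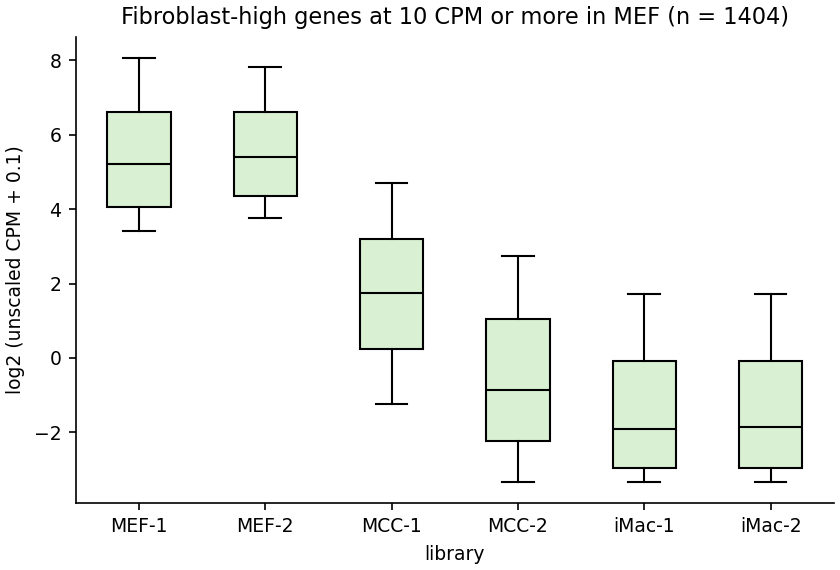
Levels of the 1404 fibroblast-high genes with at least 10 CPM in MEF, as log2 of unscaled CPM plus 0.1 (vertical), in each of the 6 libraries (horizontal). Boxes span the quartiles with the median as a line and whiskers the 10th to 90th percentile, and MCC library 1 lies above MCC library 2 and both iMac libraries.

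Called members of the fibroblast-high set differed in how far they followed the gap between the MCC libraries. Of the 109 called lower, 88 were higher in MCC library 1 and 21 were at or above that level in MCC library 2. A call favours genes whose MCC libraries are alike, so these counts are partly fixed by the test. Axl, Id3, Mmp14, Fn1, Ccl2 and Ccl7, given next, are among the 88. Axl, a receptor for the apoptotic-cell bridge Gas6, stood at 152 and 137 CPM in MCC and 35.3 and 48.6 CPM in iMac (-1.78 ± 0.17 (SE), adjusted p = 0.0138), and the MCC libraries were alike. Id3, an inhibitor of helix-loop-helix transcription factors, stood at 44.8 and 42.1 CPM in MCC and 0.831 and 1.23 CPM in iMac (-5.40 ± 0.20 (SE), adjusted p = 0.00825), so both MCC libraries lay far above both iMac libraries. Mmp14, a membrane-bound matrix metalloprotease, behaved likewise, with 74.7 and 57.8 CPM in MCC and 3.83 and 1.89 CPM in iMac. The AP-1 subunit Fosb stood at 28.8 and 39.3 CPM in MCC and 1.99 and 1.71 CPM in iMac, and Lyve1, a hyaluronan receptor known from lymphatic endothelium and some tissue macrophages, was another of the 21. Fn1, the matrix protein fibronectin, which macrophages can also make, kept an excess in both MCC libraries over iMac: 1511 and 496 CPM in MCC and 44.5 and 52.4 CPM in iMac (-4.37 ± 0.59 (SE), adjusted p = 0.0225). The chemokine genes Ccl2 (155 and 43.9 CPM in MCC and 7.24 and 8.48 CPM in iMac) and Ccl7 (66.5 and 18.5 CPM in MCC and 3.09 and 2.52 CPM in iMac), which recruit monocytes, were fibroblast-high and called lower, with the higher level in MCC library 1. A sterol gene among the 21, Fdft1, is described with its pathway.

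Myc itself was not called, and its direction rests on the MCC libraries. It stood at 829.7 and 1161 CPM in MCC and 1015 and 1053 CPM in iMac (0.06 ± 0.17 (SE), adjusted p = 0.866), the iMac values lay between those of MCC, and the sign of the difference turned without scaling and without MCC library 1 (-0.072 and -0.17). Without MCC library 2 it passed the threshold as higher (0.31). In MEF it stood at 66.6 and 67.5 unscaled CPM. Gene counts do not tell an introduced Myc sequence from the gene's own. Spi1, encoding PU.1, stood at 307 and 370.4 CPM in MCC and 366 and 305 CPM in iMac (-0.01 ± 0.13 (SE), adjusted p = 0.958), and the groups overlapped.

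The macrophage identity genes were more often higher than lower in iMac. Of 23 tested, 12 were higher, 4 were lower and the median log2 fold change was 0.46 (0.43 to 0.53 with each library left out). Leaving out MCC library 1 gave 14 higher and 5 lower, and leaving out MCC library 2 gave 13 and 7. Without scaling, 9 were higher and 5 lower. Lyz2, lysozyme, one of the most abundant macrophage transcripts, stood at 6343 and 5992 CPM in MCC and 14979 and 11641 CPM in iMac (1.11 ± 0.14 (SE), adjusted p = 0.0200), so each iMac library was well above each MCC library. Its near-copy Lyz1 can share reads with it. Csf1r, the CSF1 receptor, stood at 2022 and 2027 CPM in MCC and 2903 and 2680.4 CPM in iMac (0.46 ± 0.07 (SE), adjusted p = 0.0315); 15.1% of its exonic bases overlap another gene. Adgre1, which encodes the surface marker F4/80, stood at 558 and 481 CPM in MCC and 962 and 904 CPM in iMac (0.84 ± 0.09 (SE), adjusted p = 0.0162). Mpeg1, a pore-forming protein of the phagosome, stood at 797 and 1008 CPM in MCC and 2703 and 2339.6 CPM in iMac (1.48 ± 0.14 (SE), adjusted p = 0.0140). Siglec1, the sialic acid receptor sialoadhesin, was higher by 1.22 and Cd68, a glycoprotein of late endosomes, by 0.80, and the adaptor chains Tyrobp and Fcer1g by 0.62 and 0.59 (log2 fold changes). Itgam, an integrin chain of complement receptor 3, rose by 0.65, but 68.7% of its exonic bases overlap another gene. The pan-leukocyte phosphatase Ptprc had a difference of 0.27 that was not called (adjusted p = 0.0982).

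The 4 identity genes that fell in the fit of all 4 libraries are all receptors for scavenging. Cd163, which takes up haemoglobin bound to haptoglobin, stood at 139 and 165 CPM in MCC and 20.1 and 6.98 CPM in iMac (-3.48 ± 0.51 (SE), adjusted p = 0.0257), and no iMac library came near the MCC values. Mrc1, the mannose receptor, fell by 0.64 on the log2 scale and Msr1, the class A scavenger receptor, by 0.90, while Marco, a related receptor, fell from 8.88 to 3.16 CPM on average.

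The transcription factors of the myeloid lineage were split. Among 26 tested outside the fibroblast-high set, 4 were higher and 3 lower, with a median log2 fold change of 0.15 (0.09 to 0.27 with each library left out); the median was 0.03 without scaling. The counts were 9 higher and 6 lower without MCC library 1, and 10 and 7 without MCC library 2. Irf8, a determinant of monocytes and macrophages, stood at 186 and 237 CPM in MCC and 363 and 339.8 CPM in iMac (0.73 ± 0.13 (SE), adjusted p = 0.0387). Mitf, related to the lysosomal regulator Tfeb, and Tcf4 rose by 0.78 and 0.53, and Atf3 rose by 1.02. Egr1 stood at 409 and 354 CPM in MCC and 112 and 131 CPM in iMac (-1.65 ± 0.11 (SE), adjusted p = 0.0118), Cebpd fell by 1.10 and Tfec by 1.20. Cebpa stood at 139 and 158 CPM in MCC and 143 and 137 CPM in iMac; the difference was not called.

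The 12 largest rises among well expressed genes outside the fibroblast-high set, by the naming rule, ran from Cd28 (2.82) to Tcim (1.87) on the log2 scale. Cd28, a costimulatory receptor best known from T cells, stood at 89.3 and 59.997 CPM in MCC and 564 and 488 CPM in iMac (2.82 ± 0.21 (SE), adjusted p = 0.0118), so that both iMac libraries were several-fold above both MCC libraries. The summed level of the T and NK cell marker list lay between 2.01 and 2.53 CPM in these 4 libraries, and 3 of its 10 members in the table had no count in MCC and 6 had none in iMac. Stab2, a hyaluronan scavenger receptor, stood at 12.9 and 9.82 CPM in MCC and 69.2 and 63.6 CPM in iMac (2.55 ± 0.16 (SE), adjusted p = 0.0114), and Cd93, a lectin-like receptor of myeloid and endothelial cells, at 207 and 120.5 CPM in MCC and 811 and 709.7 CPM in iMac (2.22 ± 0.27 (SE), adjusted p = 0.0190). Rasgrp3, an activator of Ras-family proteins, stood at 42.2 and 22.1 CPM in MCC and 195 and 206 CPM in iMac (2.64 ± 0.31 (SE), adjusted p = 0.0179). Rnf144b, a ubiquitin ligase, stood at 29.5 and 31.9 CPM in MCC and 164 and 171 CPM in iMac (2.45 ± 0.08 (SE), adjusted p = 0.00825), with little spread within either group. P2ry1, a receptor for ADP, rose by 2.56, the potassium channel gene Kcnj10 by 2.79, Plxdc2 by 2.50, Ms4a14 by 2.19, and Mturn by 1.90. Pltp is given with the lipid genes. Kcnj10 had the largest standard error of the 12, with 21.4 and 7.20 CPM in MCC and 120.2 and 77.4 CPM in iMac.

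The 12 largest falls ran from Saa3 (-4.67) to Cxcl14 (-1.97), with Cd163, given above, next to Saa3. Saa3, a serum amyloid made by activated macrophages, stood at 54.2 and 236 CPM in MCC and 7.03 and 4.37 CPM in iMac (-4.67 ± 0.81 (SE), adjusted p = 0.0385), and the MCC values differed several-fold from each other. C4b, complement component 4, stood at 60.9 and 67.1 CPM in MCC and 9.49 and 8.27 CPM in iMac (-2.85 ± 0.12 (SE), adjusted p = 0.00825); C4a is a close copy and the split of reads between them is uncertain. Fcrls, an Fc receptor-like gene known from microglia, stood at 612 and 289 CPM in MCC and 52.9 and 67.6 CPM in iMac (-2.90 ± 0.39 (SE), adjusted p = 0.0225), and Tmem119, another gene known from microglia and from bone-forming cells, at 30.7 and 19.4 CPM in MCC and 6.38 and 5.57 CPM in iMac (-2.07 ± 0.26 (SE), adjusted p = 0.0193). Itgal, the alpha chain of the leukocyte integrin LFA-1, stood at 140.2 and 189 CPM in MCC and 38.8 and 40.4 CPM in iMac (-2.06 ± 0.16 (SE), adjusted p = 0.0118). Socs3, a feedback inhibitor of cytokine signalling, stood at 136 and 101 CPM in MCC and 29.99 and 28.2 CPM in iMac (-2.03 ± 0.16 (SE), adjusted p = 0.0118). Tgfbi, a secreted matrix protein, fell by 1.97 on the log2 scale and the chemokine gene Cxcl14 by 1.97. The remaining ones were Tmem26, the atypical cadherin gene Fat3 and Ggt5, an enzyme that converts leukotrienes, at -2.98, -2.67 and -2.29.

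**Figure D3:**
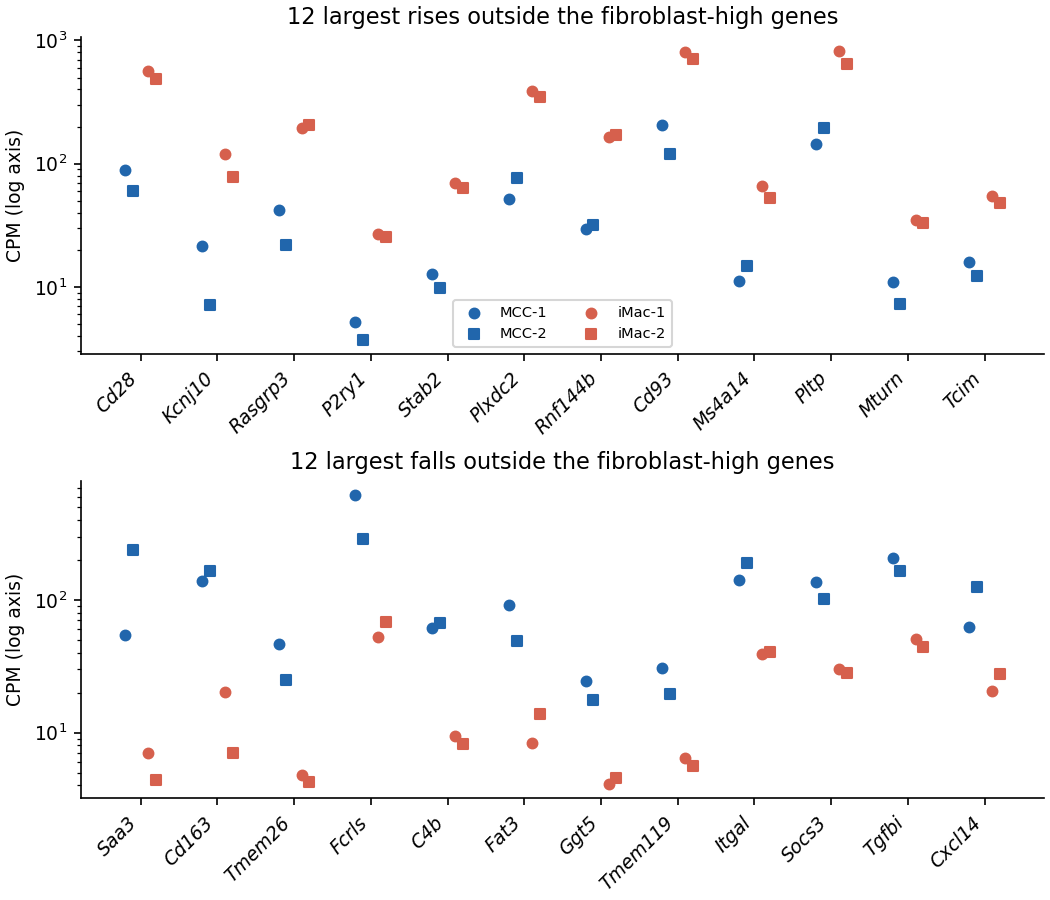
Levels of the 12 largest rises and 12 largest falls outside the fibroblast-high set in scaled CPM on a log axis, with 1 point for each MCC and iMac library. The rule took only genes whose groups do not overlap, such as Cd28 with 59.997 to 89.3 CPM in MCC and 488 to 564 CPM in iMac.

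Genes of lipid handling rose in part. Of 23 tested outside the fibroblast-high set, 10 were higher and 0 lower, with a median log2 fold change of 0.59 (0.46 to 0.73 with each library left out). At an unadjusted p under 0.05 in edgeR, 2 were lower, and DESeq2 also called 2 lower. Without MCC library 1 there were 13 higher and 3 lower, and without MCC library 2 15 and 2. Pltp, which moves phospholipids between lipoproteins, stood at 144 and 194 CPM in MCC and 818 and 644 CPM in iMac (2.11 ± 0.19 (SE), adjusted p = 0.0126). Abcg1 and Abca1, the exporters of cholesterol, stood at 69.4 and 108 CPM in MCC and 311 and 275 CPM in iMac (1.72 ± 0.22 (SE), adjusted p = 0.0213) and at 772 and 644 CPM in MCC and 1909.7 and 1758 CPM in iMac (1.37 ± 0.11 (SE), adjusted p = 0.0120). In both exporters each iMac library was over each MCC library, and the groups were likewise apart in all 1364 called genes. Plin2, the coat protein of lipid droplets, stood at 976 and 921 CPM in MCC and 2217 and 2149 CPM in iMac (1.20 ± 0.07 (SE), adjusted p = 0.0111), and Lpl, lipoprotein lipase, at 1276 and 1459.8 CPM in MCC and 3107 and 2902 CPM in iMac (1.14 ± 0.09 (SE), adjusted p = 0.0124). Apoe, an apolipoprotein secreted by macrophages, was the most abundant member, with 11194 and 11997 CPM in MCC and 20881 and 17179 CPM in iMac (0.71 ± 0.12 (SE), adjusted p = 0.0367). Mylip, a ubiquitin ligase gene switched on by LXR, rose by 0.97 and Apoc1 by 0.91. Nr1h3, which encodes LXR alpha, was not called (17.8 and 24.5 CPM in MCC and 17.1 and 14.5 CPM in iMac). Spp1, the secreted protein osteopontin, stood at 5824 and 2899 CPM in MCC and 1516 and 1163 CPM in iMac and was not called (adjusted p = 0.0543).

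Genes of cholesterol synthesis went the other way. Of 16 tested outside the fibroblast-high set, 13 were lower and 0 higher, with a median log2 fold change of -0.84 (-0.94 to -0.75 with each library left out); at an unadjusted p under 0.05, and in DESeq2, 0 were higher and 16 lower. Cyp51, the lanosterol demethylase, stood at 62.05 and 64.8 CPM in MCC and 20.3 and 20.9 CPM in iMac (-1.62 ± 0.08 (SE), adjusted p = 0.0102). Idi1, an isomerase of isoprenoid building blocks, stood at 14.1 and 17.4 CPM in MCC and 5.99 and 5.12 CPM in iMac (-1.50 ± 0.18 (SE), adjusted p = 0.0192). Sqle, squalene epoxidase, stood at 69.2 and 79.6 CPM in MCC and 30.6 and 31.5 CPM in iMac (-1.26 ± 0.10 (SE), adjusted p = 0.0118), and Msmo1, a sterol oxidase, at 49.4 and 50.9 CPM in MCC and 22.9 and 23.6 CPM in iMac (-1.11 ± 0.08 (SE), adjusted p = 0.0118). Within each of these genes the libraries of a group were close and the groups well apart. Insig1, the sterol sensor, fell by 0.82 on the log2 scale, and Srebf2, which encodes SREBP2, by 0.53. Summed over all 20 listed genes, fibroblast-high ones included, the unscaled level was 1736 and 2856 CPM in MEF. It was 1028 and 1167 CPM in MCC and 488 and 508 CPM in iMac, so the sum was highest in MEF. The rule set apart further members as fibroblast-high. One of them, Fdft1, squalene synthase, stood at 31.1 and 33.1 CPM in MCC and 11.3 and 10.6 CPM in iMac (-1.55 ± 0.10 (SE), adjusted p = 0.0118; 18.3% of its exonic bases overlap another gene). It was slightly higher in MCC library 2 than in MCC library 1, opposite to the collagens.

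**Figure D4:**
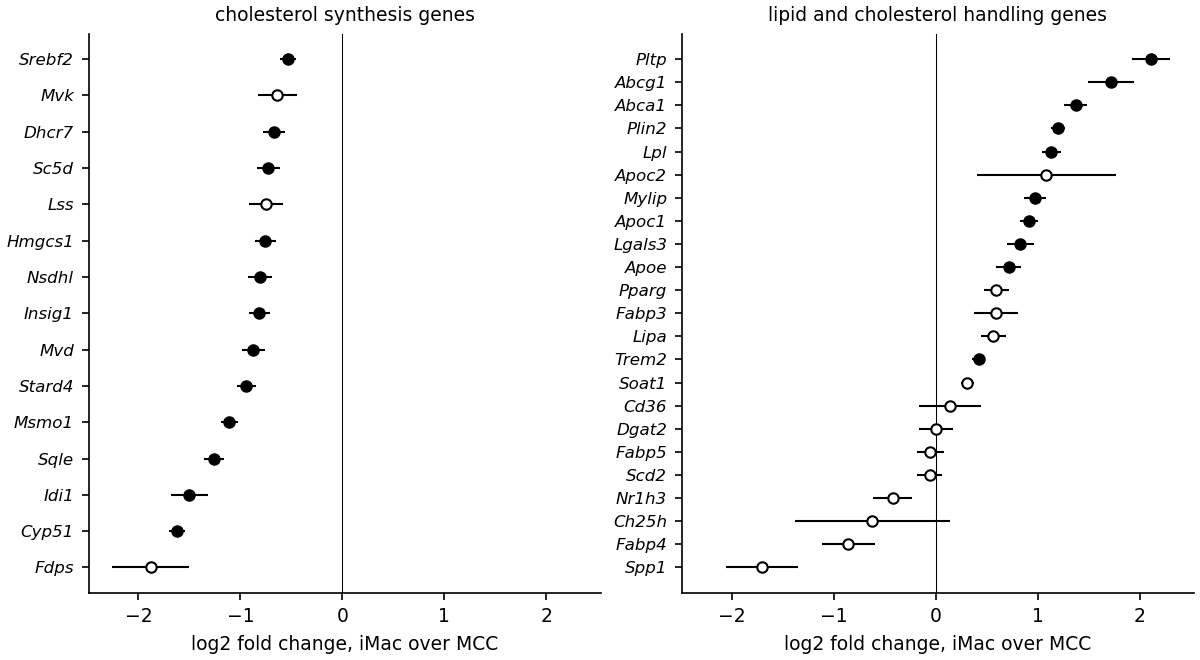
Levels of cholesterol synthesis and lipid handling genes outside the fibroblast-high set, as log2 fold change of iMac over MCC (horizontal), 1 gene a line, with bars for the standard error. Filled points were called, such as Cyp51 on the left and Pltp on the right, and open points were not. Each synthesis gene shown lies below 0; not every member is shown.

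The promoters of the sterol genes were read because the members moved together, with motifs chosen after their values were seen. Promoters are RefSeq windows on GRCm38.p6 of 300 bases, 250 before to 50 after each gene's start, and both strands were searched. Of the 16 members 12 had a promoter entry. The sterol response element was searched as TCACNCCAC and was found in 1 of the 12, Hmgcs1, an early enzyme of the pathway (-0.75 ± 0.10 (SE), adjusted p = 0.0231), against 1.44% of 27025 genes. The CCAAT box, searched as CCAAT, was found in 12 of the 12, against 41.1% of all genes. Of these 12, 10 were called, so the box does not set called members apart from the others. The windows, 60 bases each and 5′ to 3′ along the gene, show the Hmgcs1 element at chr13:119690188-119690247 (plus strand) and the CCAAT boxes of the 3 called members with a promoter entry and the largest falls, Cyp51 at chr5:4104698-4104757 (minus strand), Idi1 at chr13:8885546-8885605 (plus strand) and Msmo1 at chr8:64733602-64733661 (minus strand). Capitals mark 1 match in each window, on either strand; the Idi1 window holds another CCAAT match in lower case.
Hmgcs1: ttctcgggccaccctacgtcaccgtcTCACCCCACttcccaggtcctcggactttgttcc
Cyp51: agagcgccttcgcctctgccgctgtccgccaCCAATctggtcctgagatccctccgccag
Idi1: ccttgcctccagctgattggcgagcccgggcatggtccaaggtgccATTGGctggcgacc
Msmo1: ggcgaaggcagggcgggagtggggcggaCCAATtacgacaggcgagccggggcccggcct

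Genes of the lysosome were more often higher. Of 30 tested, 13 were higher and 2 lower, with a median log2 fold change of 0.38 (0.36 to 0.47 with each library left out). Without scaling the higher count was 6, and without MCC library 2 it was 24. Ctsb, the protease cathepsin B, stood at 6444 and 6481 CPM in MCC and 12406 and 11264 CPM in iMac (0.87 ± 0.08 (SE), adjusted p = 0.0140), and Hexa, a hexosaminidase subunit, at 414 and 429 CPM in MCC and 849.9 and 783 CPM in iMac (0.95 ± 0.07 (SE), adjusted p = 0.0118). Gpnmb, a glycoprotein of lysosome-rich macrophages, stood at 5121 and 4415 CPM in MCC and 10051 and 8902 CPM in iMac (0.99 ± 0.11 (SE), adjusted p = 0.0167). Atp6v0d2, a subunit of the proton pump, rose by 1.16. The 2 that fell were Ctsc, the protease that activates granule proteases, with 1162 and 929 CPM in MCC and 492 and 532 CPM in iMac, and Acp5, the tartrate-resistant acid phosphatase, with 8.31 and 9.95 CPM in MCC and 3.71 and 3.48 CPM in iMac. Ctsl and Ctss, other cathepsins of high level, had differences of -0.11 and -0.11 that were not called.

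Receptors of uptake and recognition had calls in both directions. Of 20 phagocytic and scavenger receptor genes tested outside the fibroblast-high set, 7 were higher and 5 lower, with a median log2 fold change of 0.12 (0.06 to 0.17 with each library left out). The Fc receptors Fcgr2b, which is inhibitory, and Fcgr3, which is activating, stood at 194 and 149.9 CPM in MCC and 447 and 355 CPM in iMac (1.22 ± 0.17 (SE), adjusted p = 0.0237) and at 389.7 and 353 CPM in MCC and 715 and 679 CPM in iMac (0.91 ± 0.08 (SE), adjusted p = 0.0124). Clec7a, the beta-glucan receptor dectin-1, stood at 30.1 and 48.6 CPM in MCC and 91.2 and 119 CPM in iMac (1.42 ± 0.26 (SE), adjusted p = 0.0428), while the related lectin gene Clec4n stood at 91.6 and 108 CPM in MCC and 33.8 and 27.5 CPM in iMac (-1.71 ± 0.14 (SE), adjusted p = 0.0124). Of 26 pattern recognition genes, 6 were higher and 3 lower, with a median log2 fold change of 0.10 (-0.04 to 0.17 with each library left out). A fit without MCC library 1 called 11 higher and 3 lower, and one without MCC library 2 called 9 and 6. The higher ones were Tlr7 (202 and 181 CPM in MCC and 400.0 and 354 CPM in iMac) and Tlr9 (25.5 and 36.9 CPM in MCC and 67.8 and 62.2 CPM in iMac), sensors of RNA and DNA in endosomes, Unc93b1 (444 and 476 CPM in MCC and 857 and 797 CPM in iMac), which carries them there, Tlr1, Tlr6 and Clec7a. The lower ones were Clec4e (-1.95), the inflammasome gene Nlrp3 (-0.89) and Sting1 (-0.63), an adaptor for DNA sensing in the cytosol. Tlr4 and Cd14, which detect lipopolysaccharide, had differences of 0.36 and 0.02 that were not called.

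Cell division genes were lower in iMac. Of 30 DNA replication genes, 22 were lower and 0 higher, with a median log2 fold change of -0.65 (-0.70 to -0.56 with each library left out). Of 30 mitosis genes, 27 were lower and 0 higher, with a median of -0.88 (-0.96 to -0.75). For both lists 0 were higher at an unadjusted p under 0.05 and in DESeq2, which called 27 and 29 lower. Cdc45, a subunit of the replicative helicase, stood at 31.1 and 30.9 CPM in MCC and 14.95 and 14.1 CPM in iMac (-1.09 ± 0.10 (SE), adjusted p = 0.0124), and Cdc6, which loads that helicase, at 33.3 and 28.1 CPM in MCC and 14.6 and 14.6 CPM in iMac (-1.07 ± 0.12 (SE), adjusted p = 0.0164). Ccne1, the cyclin of entry into S phase, stood at 34.96 and 25.8 CPM in MCC and 13.9 and 14.6 CPM in iMac (-1.09 ± 0.17 (SE), adjusted p = 0.0305). Mki67, the proliferation marker, stood at 459 and 406 CPM in MCC and 236 and 271 CPM in iMac (-0.77 ± 0.10 (SE), adjusted p = 0.0219), and Plk1, a mitotic kinase, at 59.8 and 63.1 CPM in MCC and 26.5 and 31.8 CPM in iMac (-1.08 ± 0.11 (SE), adjusted p = 0.0153). In each of these both MCC libraries were above both iMac libraries, as in every gene called lower. Summed over the mitosis list the unscaled level was 2872 and 2839.8 CPM in MCC and 1396 and 1615 CPM in iMac, so transcripts of division were present in iMac too; in MEF it was 1163 and 2404 CPM. Cenpa, a centromeric histone, was an exception among mitosis genes, with 88.6 and 119 CPM in MCC and 108 and 125 CPM in iMac and no call. Gins2, Chaf1a, Kif20a, Ube2c and Ccne2 share between 17.4% and 67.3% of their exonic bases with another gene.

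Promoters of these lists were searched in the same way, with the E2F site as TTTCCCGC or TTTGGCGC and the cell cycle homology region as TTTGAA, and none of the motifs contains another. The E2F site was found in 8 of 24 replication genes with an entry, against 1.8% of all genes, and in 0 of 25 mitosis genes. The cell cycle homology region was found in 20 of 25 mitosis genes, against 20.2% of all genes, and in 2 of 24 replication genes. The CCAAT box was found in 22 of 25 mitosis genes and in 16 of 24 replication genes, against 41.1%. Among called members with an entry, the E2F site was in 6 of 17 replication genes. The cell cycle homology region was in 18 of 23 called mitosis genes. These counts describe the lists, and a link between a match and the fall in iMac was not tested. A match describes these letters and shows no binding. The windows give the sites of the 3 called genes with the largest falls that hold one before the start: for E2F Cdc6 at chr11:98907987-98908046 (plus strand), Mcm5, a helicase subunit, at chr8:75109334-75109393 (plus strand) and Pola1, the catalytic subunit of DNA polymerase alpha, at chrX:93632260-93632319 (minus strand).
Cdc6: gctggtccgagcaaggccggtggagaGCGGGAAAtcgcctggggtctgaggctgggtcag
Mcm5: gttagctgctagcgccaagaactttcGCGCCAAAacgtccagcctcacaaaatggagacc
Pola1: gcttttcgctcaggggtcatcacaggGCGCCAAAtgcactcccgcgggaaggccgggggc

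For the cell cycle homology region they are Ube2c, a ubiquitin-conjugating enzyme of mitotic exit, at chr2:164769869-164769928 (plus strand), Ect2, an activator of the cytokinetic ring, at chr3:27153960-27154019 (minus strand) and Prc1, a protein of the spindle midzone, at chr7:80294416-80294475 (plus strand), chosen in the same way.
Ube2c: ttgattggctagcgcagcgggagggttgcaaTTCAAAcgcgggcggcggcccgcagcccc
Ect2: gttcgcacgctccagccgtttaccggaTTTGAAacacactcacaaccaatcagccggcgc
Prc1: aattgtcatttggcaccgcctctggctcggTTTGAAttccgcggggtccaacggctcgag

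Inhibitors of the cell cycle did not move as one. Of 16 p53 and cell cycle inhibitor genes tested outside the fibroblast-high set, 3 were higher and 1 lower, with a median log2 fold change of 0.10 (-0.04 to 0.20 with each library left out). With MCC library 1 left out, 7 were higher and 1 lower, and with MCC library 2 left out 5 and 5. Gadd45b, a stress-induced growth arrest gene, stood at 13.1 and 11.6 CPM in MCC and 38.9 and 39.1 CPM in iMac (1.66 ± 0.10 (SE), adjusted p = 0.0118), Sesn1, a p53 target, at 329.9 and 307 CPM in MCC and 483 and 569.5 CPM in iMac (0.72 ± 0.10 (SE), adjusted p = 0.0237), and Rb1, the retinoblastoma protein gene, at 39.2 and 40.02 CPM in MCC and 57.4 and 55.2 CPM in iMac (0.51 ± 0.07 (SE), adjusted p = 0.0267). Cdkn2c, an inhibitor of Cdk4 and Cdk6, was lower (-0.82). Cdkn1a, the p53 target p21, stood at 206 and 148 CPM in MCC and 194 and 197 CPM in iMac with no call.

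Genes of ribosome production and other Myc targets fell in part, by small amounts. Of 30 tested, 8 were lower and 0 higher, with a median log2 fold change of -0.30 (-0.31 to -0.27 with each library left out). At an unadjusted p under 0.05, 1 was higher and 20 lower, and DESeq2 called 1 higher and 18 lower. Without scaling, 18 were lower. Leaving out MCC library 1 gave 2 higher and 19 lower, and leaving out MCC library 2 gave 1 and 18. Nme1, a nucleoside kinase, stood at 28.4 and 26.3 CPM in MCC and 16.02 and 16.3 CPM in iMac (-0.76 ± 0.10 (SE), adjusted p = 0.0213), and Cad, which starts pyrimidine synthesis, at 201 and 195 CPM in MCC and 130.5 and 136 CPM in iMac (-0.58 ± 0.06 (SE), adjusted p = 0.0154). The nucleolar proteins Ncl and Npm1 had differences of -0.13 and -0.06 that were not called. Among 10 genes of Myc and its partners tested, 1 was called, which is near the share of all genes (8.6%). Dropping an MCC library gave a list median log2 fold change of 0.18 (library 1 dropped) or 0.23 (library 2 dropped). Such fits called more genes in all, so the share of 8.6% does not apply to them. Without scaling 0 of the 10 were called. At an unadjusted p under 0.05, 4 were higher, against 4605 of all 15859 tested genes in either direction. DESeq2 called 3, against 2950 of all tested genes. In the 4 libraries the list had a median log2 fold change of 0.14 (0.14 to 0.23 with each library left out). The called gene was Mxd4, an antagonist of Myc at shared sites, with 172 and 151 CPM in MCC and 223 and 241 CPM in iMac (0.52 ± 0.09 (SE), adjusted p = 0.0385).

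Glycolysis genes fell in part, and respiration genes were mostly not called. Of 24 glycolysis and hypoxia genes tested outside the fibroblast-high set, 8 were lower and 0 higher, with a median log2 fold change of -0.31 (-0.43 to -0.12 with each library left out); at an unadjusted p under 0.05, and in DESeq2, 2 were higher and 10 lower. Without MCC library 1 there were 2 higher and 9 lower, and without MCC library 2 2 and 15. Hk2, the inducible hexokinase, stood at 97.2 and 93.7 CPM in MCC and 57.6 and 59.1 CPM in iMac (-0.71 ± 0.07 (SE), adjusted p = 0.0140), and Pkm, pyruvate kinase, at 2487 and 2015 CPM in MCC and 1447 and 1318 CPM in iMac (-0.70 ± 0.12 (SE), adjusted p = 0.0387). Ldha, lactate dehydrogenase, stood at 1112 and 931 CPM in MCC and 703 and 721 CPM in iMac (-0.52 ± 0.10 (SE), adjusted p = 0.0474). Glycolytic genes such as Gapdh have many processed copies in the genome, and reads may be split with them. Of 21 oxidative phosphorylation genes, 1 was lower, Cycs, cytochrome c (-0.71), with a median log2 fold change of -0.15 (-0.17 to -0.08 with each library left out). At an unadjusted p under 0.05, 0 were higher and 5 lower, against 4605 of all 15859 tested genes in either direction. DESeq2 called 0 and 4. A fit without MCC library 1 called 0 higher and 5 lower, and one without MCC library 2 called 0 and 5. Without scaling, 4 were lower.

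Genes of amino acid supply fell in part, and genes of redox defence had calls in both directions. Of 18 amino acid stress genes tested outside the fibroblast-high set, 9 were lower and 1 higher, with a median log2 fold change of -0.74 (-0.79 to -0.61 with each library left out), and a further 3 were fibroblast-high and lower (Chac1, Trib3 and Slc7a11). Limma-voom called 5 lower. Mthfd2, a mitochondrial folate enzyme, stood at 31.99 and 37.5 CPM in MCC and 9.85 and 11.2 CPM in iMac (-1.72 ± 0.13 (SE), adjusted p = 0.0118). Slc7a5, a transporter of large neutral amino acids, stood at 85.7 and 98.7 CPM in MCC and 39.8 and 46.3 CPM in iMac (-1.10 ± 0.12 (SE), adjusted p = 0.0153), and Asns, asparagine synthetase, at 54.3 and 74.9 CPM in MCC and 31.7 and 34.2 CPM in iMac (-0.97 ± 0.17 (SE), adjusted p = 0.0386). Atf4, whose product controls many of these genes, had a difference of -0.12 that was not called. The 1 higher gene was Atf3. Of 22 oxidative stress and haem genes outside the fibroblast-high set, 7 were lower and 2 higher, with a median log2 fold change of 0.04 (-0.01 to 0.13 with each library left out). At an unadjusted p under 0.05, 8 were higher and 8 lower. With MCC library 1 left out, 9 were higher and 8 lower, and with MCC library 2 left out 9 and 8. Hmox1, haem oxygenase, stood at 973 and 572 CPM in MCC and 276 and 237 CPM in iMac (-1.59 ± 0.27 (SE), adjusted p = 0.0352), and Gclm, a subunit of the glutathione-making ligase, at 62.3 and 82.5 CPM in MCC and 22.1 and 20.6 CPM in iMac (-1.76 ± 0.16 (SE), adjusted p = 0.0125). Txnrd1, thioredoxin reductase, fell by 1.12 on the log2 scale, while Nfe2l2, the gene of the stress factor NRF2, was higher (148 and 119 CPM in MCC and 214 and 204 CPM in iMac). Slc7a11, the cystine importer, was fibroblast-high and lower, with 11.7 and 8.80 CPM in MCC and 0.267 and 0.270 CPM in iMac.

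Immediate early genes, which respond within minutes to stimulation or handling, were lower in part, and their median depends on 1 library. Of 22 tested outside the fibroblast-high set, 5 were lower and 2 higher, and the median log2 fold change of -0.49 was -0.05 without MCC library 1. Leaving out MCC library 1 gave 5 higher and 9 lower, and leaving out MCC library 2 gave 2 and 16. Junb, an AP-1 subunit, stood at 211 and 214 CPM in MCC and 136 and 115 CPM in iMac (-0.76 ± 0.10 (SE), adjusted p = 0.0213) and Fos at 377 and 453 CPM in MCC and 298 and 289.9 CPM in iMac with no call.

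Secreted signals and their receptors had calls in both directions. Of 19 cytokine and chemokine genes tested outside the fibroblast-high set, 3 were higher and 2 lower, against 4.66% and 3.81% of all genes outside that set, with a median log2 fold change of 0.04 (-0.06 to 0.21 with each library left out). The counts were 6 higher and 5 lower without MCC library 1, and 4 and 6 without MCC library 2. Ccl6 and Ccl9, chemokines made by mouse macrophages, stood at 69.5 and 104 CPM in MCC and 275 and 189.7 CPM in iMac (1.42 ± 0.26 (SE), adjusted p = 0.0428) and at 380.4 and 454 CPM in MCC and 785 and 739.8 CPM in iMac (0.87 ± 0.10 (SE), adjusted p = 0.0181), and Pf4, platelet factor 4, was higher by 0.60. Ccl12, a monocyte chemokine, stood at 17.3 and 9.15 CPM in MCC and 1.75 and 1.02 CPM in iMac (-3.25 ± 0.45 (SE), adjusted p = 0.0233). Tnf stood at 6.82 and 4.72 CPM in MCC and 7.24 and 5.96 CPM in iMac with no call. Of 22 growth factor and receptor genes outside the fibroblast-high set, 6 were higher and 1 lower, with a median log2 fold change of 0.20 (0.15 to 0.30 with each library left out); without scaling 3 were higher and 1 lower. Without MCC library 1 there were 10 higher and 2 lower, and without MCC library 2 10 and 5. Pdgfb, a growth factor for mesenchymal cells, stood at 28.5 and 27.2 CPM in MCC and 83.2 and 74.6 CPM in iMac (1.50 ± 0.09 (SE), adjusted p = 0.0114), Tgfbr2, a TGF-beta receptor, at 188 and 143 CPM in MCC and 334 and 299.9 CPM in iMac (0.94 ± 0.15 (SE), adjusted p = 0.0311), and Igf1 at 486 and 481 CPM in MCC and 856 and 726 CPM in iMac (0.71 ± 0.10 (SE), adjusted p = 0.0227). The other TGF-beta receptor chain, Tgfbr1, was lower by 0.47 on the log2 scale.

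Markers of alternative activation were lower more often than higher. Of 14 tested outside the fibroblast-high set, 5 were lower (Cd163, Mrc1, Mgl2, Hmox1 and Slc7a2) and 2 higher (Clec10a and Trem2), with a median log2 fold change of -0.79 (-0.83 to -0.56 with each library left out). A fit without MCC library 1 called 3 higher and 8 lower, and one without MCC library 2 called 2 and 8. Clec10a, a galactose-type lectin, stood at 205 and 155 CPM in MCC and 506 and 450.0 CPM in iMac (1.41 ± 0.15 (SE), adjusted p = 0.0153), and its near-copy Mgl2 at 6.29 and 8.80 CPM in MCC and 1.60 and 1.92 CPM in iMac (-2.10 ± 0.28 (SE), adjusted p = 0.0217). Arg1, arginase, stood at 119 and 28.8 CPM in MCC and 18.8 and 13.6 CPM in iMac and was not called; MCC library 1 was far above MCC library 2. Of 27 migration and adhesion genes outside the fibroblast-high set, 6 were lower and 3 higher, with a median log2 fold change of -0.10 (-0.11 to -0.01 with each library left out). With MCC library 1 left out, 7 were higher and 7 lower, and with MCC library 2 left out 5 and 10. The chemokine receptor Ccr1 stood at 149 and 99.9 CPM in MCC and 28.7 and 42.2 CPM in iMac (-1.81 ± 0.27 (SE), adjusted p = 0.0272), while Ccr2, the receptor of inflammatory monocytes, stood at 24.1 and 109 CPM in MCC and 31.4 and 33.6 CPM in iMac with no call.

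Genes listed for the interferon response were not called. Of 30 tested, edgeR called 0, with 5 at an unadjusted p under 0.05, against 4605 of all 15859 tested genes. DESeq2 called 3 (all higher), against 2950 of all tested genes in either direction. The median log2 fold change was 0.40, with MCC library 1 left out it was 0.09, and with MCC library 2 left out 1.18. Leaving out MCC library 1 gave 5 higher and 4 lower, and leaving out MCC library 2 gave 23 and 1. Rsad2, an antiviral enzyme, stood at 4.64 and 11.6 CPM in MCC and 31.8 and 16.3 CPM in iMac, and Irf7, the factor that amplifies the response, at 7.19 and 30.1 CPM in MCC and 24.9 and 15.3 CPM in iMac; for Irf7 the iMac values lay between those of MCC. Outside the list, and picked after their values were seen, the interferon-inducible genes Ifi203, Ifi207 and Mndal were called higher (1.02, 0.81 and 1.19). They belong to a family of close copies that can share reads. Among its other members, Ifi202b, Ifi204, Ifi205, Ifi209 and Ifi211 were not called (0.24, 0.25, 1.70, 0.16 and 0.55). Antigen presentation genes gave 1 call among 23, H2-T23 (9.23 and 12.7 CPM in MCC and 27.9 and 21.7 CPM in iMac), a class I relative whose reads may be shared with close copies, with a median log2 fold change of 0.03 (-0.03 to 0.24 with each library left out) for the list. The counts were 4 higher and 4 lower without MCC library 1, and 6 and 1 without MCC library 2. The class II gene H2-Aa stood at 0.787 and 0.187 CPM in MCC and 0.534 and 0.0300 CPM in iMac. Of 16 complement genes outside the fibroblast-high set, 2 were higher (Itgam and the anaphylatoxin receptor gene C3ar1) and 1 lower (C4b). Itgam has the exon overlap given above and is counted in other lists too. The complement list had a median log2 fold change of 0.10 (0.04 to 0.22 with each library left out). Without MCC library 1 there were 5 higher and 1 lower, and without MCC library 2 5 and 3. The C1q chains C1qa, C1qb and C1qc stood above 667 CPM in each library, and none was called.

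**Figure D5:**
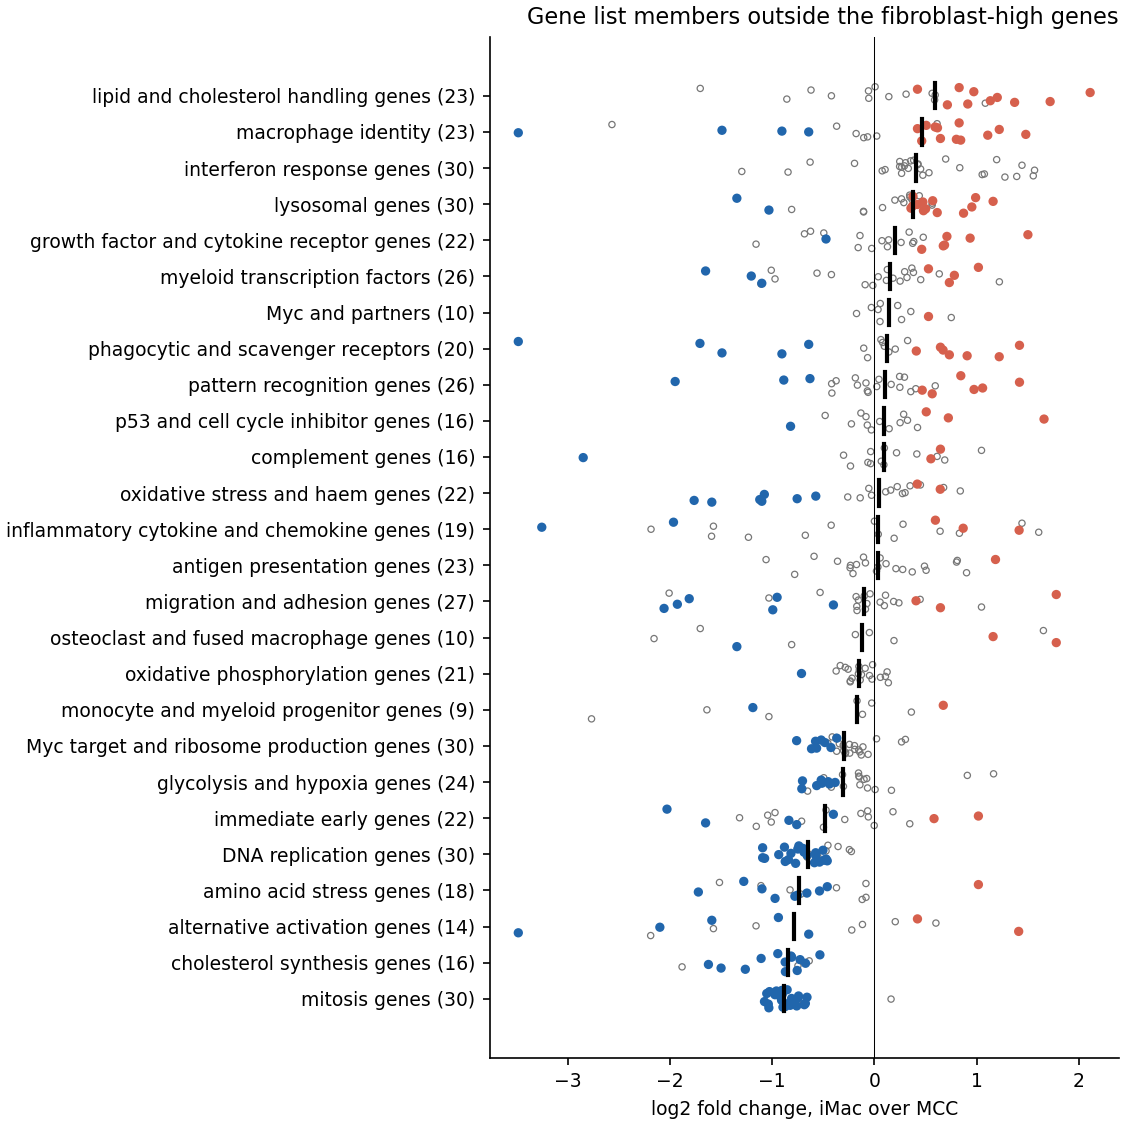
Log2 fold change of iMac over MCC (horizontal) of each list member outside the fibroblast-high set, 1 point a gene, with lists as lines and the number tested in parentheses. Red points were called higher, blue points called lower, open points not called, and black bars are medians. Lipid handling, macrophage identity and lysosomal medians lie above 0, and those of cholesterol synthesis, mitosis and DNA replication below 0.

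Of 9 monocyte and myeloid progenitor genes outside the fibroblast-high set, 1 was higher (Csf3r) and 1 lower (Prtn3, a granule protease), with a median log2 fold change of -0.17 (-0.37 to -0.11 with each library left out). A fit without MCC library 1 called 1 higher and 3 lower, and one without MCC library 2 called 2 and 2. Of 10 osteoclast genes 2 were higher (Mmp9 and Atp6v0d2) and 1 lower (Acp5), with a median log2 fold change of -0.12 (-0.22 to -0.01 with each library left out). With MCC library 1 left out, 4 were higher and 4 lower, and with MCC library 2 left out 3 and 3. In the fit of all 4 libraries, 4.66% of all tested genes outside that set were higher and 3.81% lower.

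Markers of other cell types were summed in each of the 4 libraries. The summed unscaled level of the epithelial list was at most 1.85 CPM, and that of mast cells and basophils at most 2.63 CPM. For granulocytes it lay between 121 and 147 CPM, most of it in Csf3r and Mmp8. The sums ran from 15.1 to 19.8 CPM for dendritic cells, 113 to 178 CPM for B cells (most of it in Ighm and Blnk) and 69.7 to 88.3 CPM for endothelium. The erythroid and platelet list ran from 197 to 283 CPM, most of it in Pf4. The part of these cells in the differences above was not tested.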

How the data were processed

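Per the submitters' processing notes, the authors aligned reads with STAR to mm10 and counted them per gene with featureCounts, and the deposited values are raw read counts. The versions, annotation, strand setting and treatment of multiply matching reads were not given in the sources used here. Trizol RNA and an mRNA library kit were used, per the labels' protocols. The gene split, lists, motifs and tests were chosen with earlier results of these data known.

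The main test was edgeR 4.0.16 in R 4.3.3 (filterByExpr, TMM scaling, glmQLFit and glmQLFTest, two-sided) on the 4 MCC and iMac libraries, with 2 residual degrees of freedom, and Benjamini-Hochberg adjustment over 15859 genes at a threshold of 0.05; the filter removed 14586. Levels are scaled CPM, and for MEF and summed lists unscaled CPM. Standard errors are the absolute log2 fold change over the root of F. Named were Myc, Spi1, Csf1r, Lyz2, Adgre1 and Ptprc, the 12 largest rises and falls among called, non-overlapping, non-predicted genes outside the fibroblast-high set with at least 20 CPM in the higher group, the 6 fibroblast-high genes highest in MCC, and up to 4 members of each of 35 lists (called members by fold, then by level); not each is printed, and further members were named after their values were seen. Of 30445 symbols, 29529 matched GENCODE mouse release 21, used for exon overlap. Alternatives were DESeq2 1.42.0, limma-voom 3.58.1, other scalings, filters and split ratios, a fit of all 6 libraries, a replicate block and leaving out each library. The pipeline was tested on simulated data. These lacked the excess of fibroblast-high genes in MCC library 1 and the wider spread of the MCC pair. The simulation therefore does not show how the test behaves with them. Plots used Python 3.11.15 with matplotlib 3.10.9. Some genes that the naming rule picks are not reported here.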

Additional observations from a re-analysis of the deposited data

How the results depend on the processing

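Of 112 named called genes, none reversed under any of the refits run. Many of them were named for their fold change in the main test, and the refits reuse its libraries. Few reversals could therefore arise. DESeq2 and the fits without an MCC library also called more genes in all, which favours keeping these calls. DESeq2 kept 112, median-ratio scaling 112, limma-voom 95, no filter 88 and unscaled totals 108; leaving out either MCC library kept 112 and either iMac library 0. The 6-library fit kept 2. For all genes the count was 1364, and 2950 with DESeq2, 842 with no filter and 4 with all 6 libraries. It ranged from 0 to 5222 with a library left out. Outside the fibroblast-high set the count was 1254, and 2449, 787 and 2, with 814 at a split ratio of 1 and 0 to 3799 with a library left out. For fibroblast-high genes it was 110, and 501, 55 and 2, with 48 in limma-voom, 550 at a ratio of 1, 49 where the split used MCC library 2, and 0 to 1423 with a library left out. With the replicate number as a block the counts were 1428, 1193 and 235. The labels do not say whether the numbers pair the samples. The correlation of same-number deviations over all tested genes was 0.0216. It cannot decide this, because the difference between the MCC libraries also holds the excess of fibroblast-high genes in library 1. Myc turned sign without scaling (-0.072) and without MCC library 1, ranging from -0.17 to 0.31 with a library left out, and Spi1 turned sign without MCC library 2 (0.12) and without iMac library 2 (0.12), ranging from -0.15 to 0.12; of these fits, the one of Myc without MCC library 2 passed the threshold. The cause of these changes was not tested. A fit without 1 library assumes that the lone library varies like the other group. With 2 residual degrees of freedom, small differences could not be resolved.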

Other observations

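Genes of selenoproteins, which carry selenocysteine, were listed after their values were seen. Of 19 tested outside the fibroblast-high set, 5 were lower in iMac and 1 higher, with a median log2 fold change of -0.14 (-0.18 to -0.11 with each library left out). Leaving out MCC library 1 gave 3 higher and 6 lower, and leaving out MCC library 2 gave 3 and 8. At an unadjusted p under 0.05, 5 were higher and 6 lower. Selenoh, a nuclear redox protein, stood at 43.7 and 35.9 CPM in MCC and 12.5 and 14.02 CPM in iMac (-1.59 ± 0.14 (SE), adjusted p = 0.0124), and Selenow at 103 and 80.5 CPM in MCC and 36.3 and 33.9 CPM in iMac (-1.39 ± 0.14 (SE), adjusted p = 0.0144). Gpx1, a glutathione peroxidase, stood at 434 and 372 CPM in MCC and 191 and 191 CPM in iMac (-1.08 ± 0.09 (SE), adjusted p = 0.0124), and Txnrd1 and Msrb1 were also lower (-1.12 and -0.50). Selenop, the secreted selenium carrier, went the other way, with 2939.8 and 2567 CPM in MCC and 6267 and 5660.1 CPM in iMac (1.12 ± 0.10 (SE), adjusted p = 0.0133); 15.4% of its exonic bases overlap another gene.

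The Ms4a genes, a cluster of membrane proteins with several members in macrophages, were also listed after their values were seen. Of 8 tested, 2 were higher and 1 lower, with a median log2 fold change of 0.60 (0.43 to 0.68 with each library left out). The counts were 3 higher and 2 lower without MCC library 1, and 3 and 1 without MCC library 2. Ms4a7 stood at 116 and 89.8 CPM in MCC and 262 and 222 CPM in iMac (1.23 ± 0.15 (SE), adjusted p = 0.0196), and Ms4a6d at 241 and 236 CPM in MCC and 196 and 189 CPM in iMac (-0.31 ± 0.06 (SE), adjusted p = 0.0471).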
